A study of Mus musculus with 12 samples.

Results

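The MHC class I antigen presentation pathway was followed through 10 of the 24318 genes in the table, measured in RNA of mouse hippocampus and chosen by name and not by any measured value. They were the heavy chains H2-K1, H2-D1 and H2-T23, the light chain B2m, the peptide transporter subunits Tap1 and Tap2, the loading factor Tapbp, the immunoproteasome subunits Psmb8 and Psmb9, and the transactivator Nlrc5. The libraries came from 5xFAD mice and from WT mice, both aged 7 months, with 3 libraries per genotype, titled CG. The 5xFAD strain carries human transgenes with familial Alzheimer's disease mutations, which regulatory sequence of the neuronal gene Thy1 drives, and the other mice are labelled WT, with no further genotype. The labels name neither the strain background nor the sex, and do not say that each library is a separate animal, so the tests measure the spread between libraries, which may be technical in part. Values are the deposited FPKM, a unit set per transcript length and by a library denominator that is not known here, which allows levels to be compared between genes.

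Class I molecules show peptides from inside the cell on its surface. The proteasome cuts proteins, and interferon swaps its catalytic subunits for the immunoproteasome versions. Tap1 and Tap2 form the channel that carries the peptides into the endoplasmic reticulum, where Tapbp (tapasin) holds an empty heavy chain with B2m beside the channel until a peptide binds. Cytotoxic T cells read the loaded complex. In brain, microglia and vessel cells carry class I under rest and inflammation, and class I in neurons has been studied for its part in trimming synapses. Nlrc5 is drawn to class I promoters and drives them, and its own gene responds to interferon.

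Promoter windows of the RefSeq table (build GRCm38.p6, 250 bases before to 50 after a transcript start) matched 8 of the 10 genes. Tap2 and Nlrc5 had no entry. Upstream sequence of the genes with the highest levels is shown because class I promoters are built from a fixed row of boxes. The regions are chr17:34000334-34000533 (H2-K1, minus strand), chr17:35262894-35263093 (H2-D1, plus strand) and chr2:122147487-122147686 (B2m, plus strand), each 200 bases up to the base before the start. Capitals mark, 5′ to 3′, an NF-κB-like enhancer A box in the heavy chains, then an interferon regulatory factor core, a CRE-like core and CCAAT boxes on either strand.
H2-K1: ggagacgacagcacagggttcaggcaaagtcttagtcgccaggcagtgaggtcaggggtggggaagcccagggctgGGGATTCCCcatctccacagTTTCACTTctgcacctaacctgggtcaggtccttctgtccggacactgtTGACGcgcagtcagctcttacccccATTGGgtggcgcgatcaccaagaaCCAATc
H2-D1: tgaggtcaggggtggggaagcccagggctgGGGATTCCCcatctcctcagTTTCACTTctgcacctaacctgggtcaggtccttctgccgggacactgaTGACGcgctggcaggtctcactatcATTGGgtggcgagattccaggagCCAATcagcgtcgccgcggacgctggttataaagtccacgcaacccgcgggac
B2m: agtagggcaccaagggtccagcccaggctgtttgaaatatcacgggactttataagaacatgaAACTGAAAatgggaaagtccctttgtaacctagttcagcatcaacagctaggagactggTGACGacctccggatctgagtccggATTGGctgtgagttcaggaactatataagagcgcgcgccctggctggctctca

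The promoters of the classical heavy chains H2-K1 and H2-D1 were close copies of each other, and that of H2-T23 was not. Over 192 aligned positions, H2-K1 and H2-D1 shared 172 bases, or 89.6%, and their boxes had the same spacing as far as the first CCAAT box, with 11 bases from enhancer A to the interferon core, 41 more to the CRE-like core and 20 more to the first CCAAT box. The gap to the second CCAAT box differed by 1 base. The best local match of H2-K1 to H2-T23 held 136 of 252 positions and that to B2m 49 of 79. H2-T23 has interferon cores and a CCAAT box, and no match to the enhancer A or CRE-like letters in this window. B2m has the interferon core, the CRE-like core and a CCAAT box in the same order, and no match to the enhancer A letters in this window. Tap1 and Psmb9 lie head to head, and the 225 bases between their starts, chr17:34187331-34187555 on the strand of Tap1, are upstream of both genes. Capitals there mark a CCAAT box next to the start of Psmb9 and a CRE-like core.
Tap1: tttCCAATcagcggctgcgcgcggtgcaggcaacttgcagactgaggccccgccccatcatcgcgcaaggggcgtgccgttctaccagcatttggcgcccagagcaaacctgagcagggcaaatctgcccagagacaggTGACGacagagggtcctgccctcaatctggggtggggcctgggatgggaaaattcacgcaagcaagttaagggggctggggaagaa

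**Figure D1:**
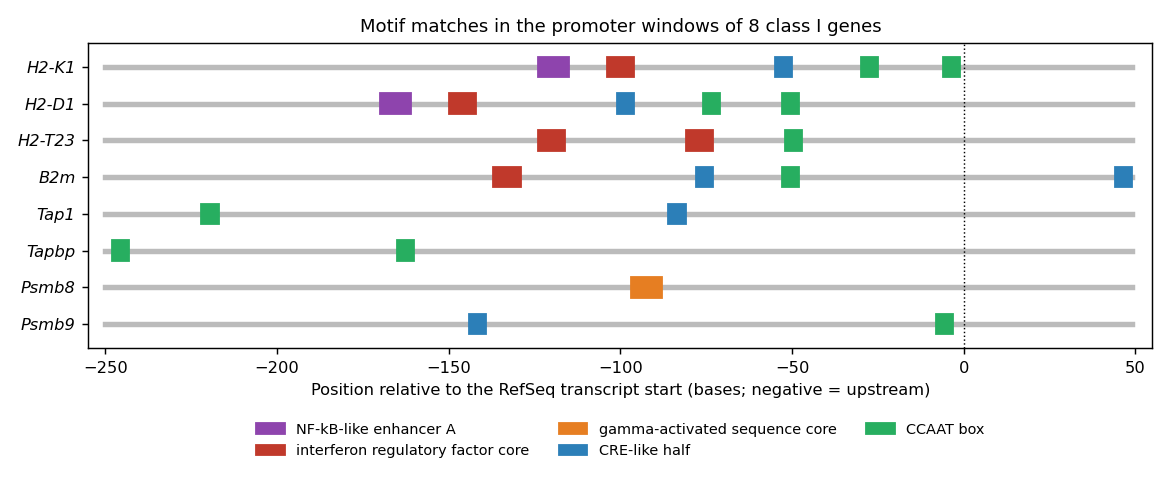
Position of motif matches on either strand in the promoter windows of 8 class I genes, in bases from the RefSeq transcript start at 0, with 1 row per gene and 1 colour per motif. H2-K1 and H2-D1 show the same row of boxes, equally spaced as far as the first CCAAT box, and Tap1 and Psmb9, which share a window, show the same 2 matches in mirror image.

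Motifs were searched on both strands of the 300-base windows. The letters of the interferon regulatory factor core, AANNGAAA, matched in 4 of the 8 genes (H2-K1, H2-D1, H2-T23 and B2m), against 23.9% of all 32851 windows. The enhancer A letters, GGGANTCCC, which read the same on both strands, matched in 2 of 8 (H2-K1 and H2-D1), against 0.767% of all windows. The CRE-like core TGACG matched in 5 of 8, against 20.8%, and CCAAT in 7 of 8, against 37.4%. For both motifs, Tap1 and Psmb9 share the same site, which is counted for each gene. With H2-K1 and H2-D1 close copies, the 8 windows are not independent of each other. The gamma-activated core TTCNNNGAA matched only in Psmb8 among the 8, at 97 to 89 bases before its start, against 8.30% of all windows. No marked box overlaps another. A match is a description of the letters and not a bound site.

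The labels were first checked against Thy1, whose sequence drives the transgenes. It was at 1136, 1172 and 305 FPKM in the libraries labelled 5xFAD, against 296, 308 and 340 FPKM in WT, so the library labelled 5xFAD replicate 3 lacked the high Thy1 signal and goes against its label. Malat1, a nuclear long noncoding RNA, was listed at 0 in all 3 libraries labelled 5xFAD, that one included, against 3608, 3288 and 3425 FPKM in WT. The class I genes are therefore given with that library (6 libraries) and without it (5 libraries). The lists of related genes and of cell type markers are described in the 5 libraries, as limma called none of their genes in 6. Earlier results of these data, known when this split was set, had also shown glial genes at WT levels in that library. Calls of glial markers in the 5 libraries thus follow in part from leaving it out. Relative depth, read from the lowest values, ran from 0.793 to 1.15 times that of WT replicate 1, and depth in reads is unknown. Ddx3y, a Y-linked gene, was at 16.2 FPKM in 5xFAD replicate 1 and 18.7 in WT replicate 1, and at most 0.0204 in the others, so values of replicate 1 and of the others are also given apart.

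All 10 class I genes were higher in both 5xFAD replicates 1 and 2 than in every WT library, against 10.6% of the 14527 genes tested. Ratios of means ran from 1.44-fold to 3.84-fold in the 9 class I genes tested. The ratio was 5.44-fold for Nlrc5, which lay below a mean of 0.5 FPKM and was not tested. The heavy chains, B2m and Psmb8 passed the test without the library labelled 5xFAD replicate 3, and no gene of the set passed it with that library. These are 5 of the 9 tested, against 1.18% of the 14527 genes called higher. In that library the 10 genes stood at 0.398 to 1.38 times the WT mean, with 5 inside the WT range, 4 below it and 1 above it. Microglia markers were high in both 5xFAD replicates 1 and 2, with a summed level 3.44-fold that of WT, and their part in the class I values was not tested. In bulk RNA, more cells of a type and more RNA per cell cannot be told apart.

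**Figure D2:**
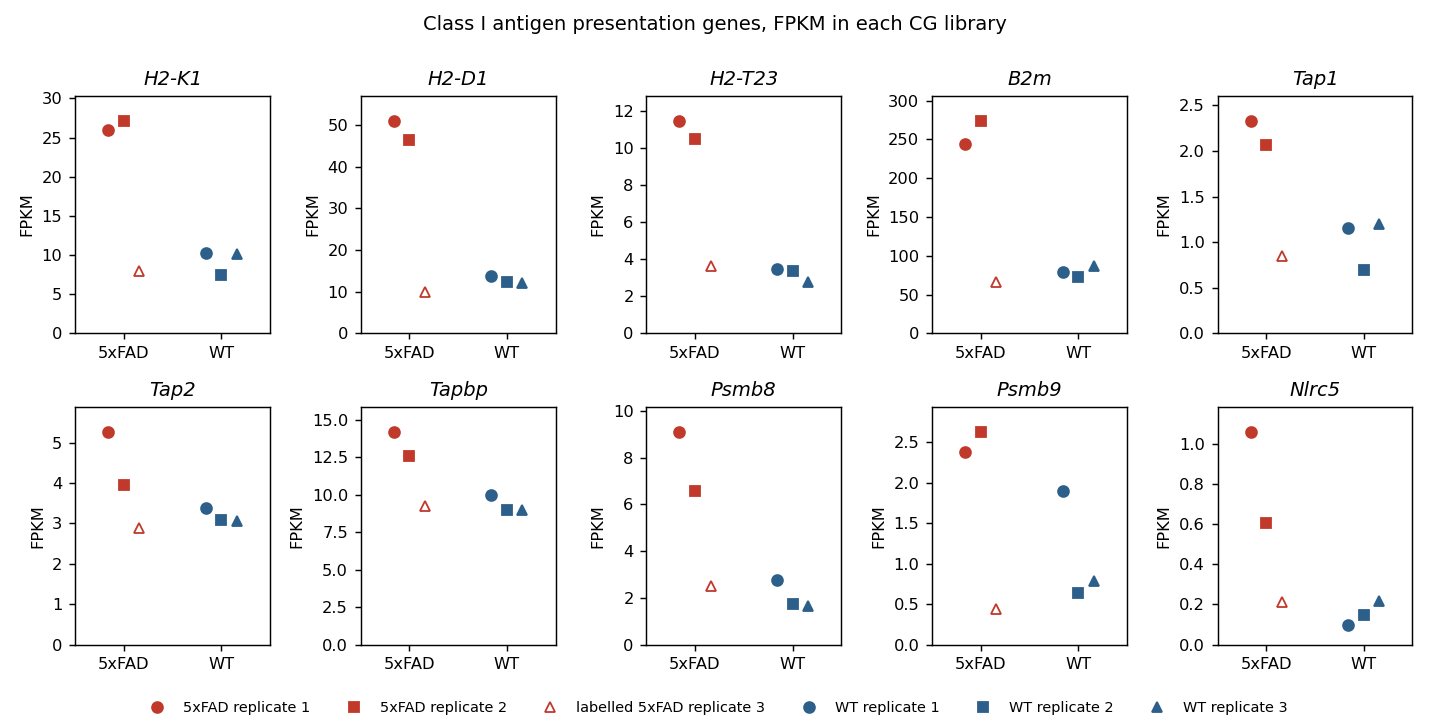
FPKM of the 10 class I genes in each CG library, 5xFAD left and WT right, on linear axes from 0 that differ between panels. Filled red points (5xFAD replicates 1 and 2) lie above all blue points (WT) in every panel, and the open red triangle (the library labelled 5xFAD replicate 3) lies near the WT points.

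The classical heavy chains bind the peptide and are read by cytotoxic T cells. H2-D1 was at 50.9, 46.3 and 9.94 FPKM in the libraries labelled 5xFAD, against 13.7, 12.3 and 12.1 FPKM in WT. The third library was below every WT value and the other 2 were far above them. Without it, H2-D1 rose by 1.86 on the log2(FPKM + 1) scale (SE 0.11, limma adjusted p = 0.000506), with 48.6 ± 3.25 FPKM in 5xFAD (SD, n = 2) and 12.7 ± 0.895 in WT (SD, n = 3). H2-K1 was at 26.02, 27.1 and 8.01 FPKM in the libraries labelled 5xFAD, against 10.2, 7.43 and 10.14 FPKM in WT, with the third library inside the WT range. Without that library it rose by 1.44 (SE 0.15, limma adjusted p = 0.00603), to 26.6 ± 0.778 FPKM in 5xFAD (SD, n = 2), against 9.26 ± 1.58 in WT (SD, n = 3). The H2-K1 call ended when 1 of the 5xFAD libraries was left out, at limma adjusted p = 0.0923 without replicate 1 and 0.0931 without replicate 2. H2-K1 and H2-D1 are near-identical genes that can share reads, so the split between them is uncertain, and class I sequence also differs between strains. The level of H2-D1 was 196%, 171% and 124% of that of H2-K1 in the libraries labelled 5xFAD, against 134%, 165% and 119% in WT, and these ranges overlap.

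H2-T23 encodes Qa-1, a non-classical heavy chain that presents leader peptides of other class I chains to NK cell receptors. It was at 11.5, 10.5 and 3.63 FPKM in the libraries labelled 5xFAD, against 3.45, 3.35 and 2.78 FPKM in WT. It was the 1 gene of the set whose values in all 3 libraries labelled 5xFAD lay above all WT values, the third by a small margin. Over all 9 genes tested, that is 1 of 9, against 2.92% of the 14500 genes tested in 6 libraries. H2-T23 rose by 1.52 without the library labelled 5xFAD replicate 3 (SE 0.14, limma adjusted p = 0.00254), a 3.44-fold ratio of means. Its call ended without 5xFAD replicate 1 (limma adjusted p = 0.0616).

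B2m, the light chain that all these heavy chains need, was the most abundant gene of the set. It was at 245, 274 and 66.4 FPKM in the libraries labelled 5xFAD, against 79.4, 73.3 and 86.8 FPKM in WT, with the third library below every WT value. Without it B2m rose by 1.69 (SE 0.12, limma adjusted p = 0.000944), to 259 ± 20.7 FPKM in 5xFAD (SD, n = 2), against 79.8 ± 6.78 in WT (SD, n = 3). B2m and H2-D1 were the 2 genes of the set called under every alternative tried on the 5 libraries. The summed level of H2-K1 and H2-D1 stayed close to a fixed share of B2m, at 31.5%, 26.8% and 27.03% in the libraries labelled 5xFAD, against 30.1%, 26.9% and 25.6% in WT.

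The immunoproteasome subunits were measured beside the constitutive ones they replace. Psmb8, the interferon-induced chymotrypsin-like subunit, was at 9.09, 6.57 and 2.53 FPKM in the libraries labelled 5xFAD, against 2.76, 1.75 and 1.64 FPKM in WT. The first 2 of these lay above all WT values and the third within them. Without the third library Psmb8 rose by 1.54 (SE 0.21, limma adjusted p = 0.0176), a 3.82-fold ratio of means. This call was the least stable of the 5: it ended when either 5xFAD library was left out (limma adjusted p = 0.214 without replicate 1 and 0.0854 without replicate 2), without WT replicate 2 (0.0624) or WT replicate 3 (0.0698), and when low genes were not filtered out (0.0596).

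Psmb9, the other interferon-induced subunit encoded in the class II region, was at 2.38, 2.63 and 0.441 FPKM in the libraries labelled 5xFAD, against 1.90, 0.642 and 0.783 FPKM in WT. WT replicate 1 stood above the other WT libraries, and 5xFAD replicate 1 was 1.25-fold above it. Psmb9 differed by 0.78 in the 5 libraries (SE 0.25, limma adjusted p = 0.480), which did not pass. It passed without WT replicate 1, with a log2 difference of 1.03 (limma adjusted p = 0.0359). The summed choroid plexus markers were also highest in that library, at 2844 FPKM, against 41.8 and 65.5 in the other WT libraries. In the libraries labelled 5xFAD they were at 56.3, 72.5 and 493 FPKM, and the third of these libraries had the lowest Psmb9 value. The part of these markers in the Psmb9 values was not tested.

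Psmb8 was at 10.8%, 10.08% and 4.11% of the level of its constitutive counterpart Psmb5 in the libraries labelled 5xFAD, against 3.52%, 2.93% and 2.02% in WT, with no overlap. The log2 ratio differed by 1.48 (exact permutation test, two-sided, p = 0.10, the smallest that 3 libraries against 3 can give, and 0.30 adjusted over 3 ratios). Psmb9 was at 3.68%, 4.67% and 0.825% of Psmb6 in the libraries labelled 5xFAD, against 2.80%, 1.30% and 1.48% in WT, and the groups overlapped (log2 difference 0.47, exact permutation p = 0.70). Psmb10, the third exchanged subunit, encoded outside the MHC, was at 12.4%, 13.1% and 11.7% of Psmb7 in the libraries labelled 5xFAD, against 10.4%, 12.6% and 10.7% in WT (log2 difference 0.15, exact permutation p = 0.30). The constitutive subunits outnumbered the induced ones in every library.

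**Figure D3:**
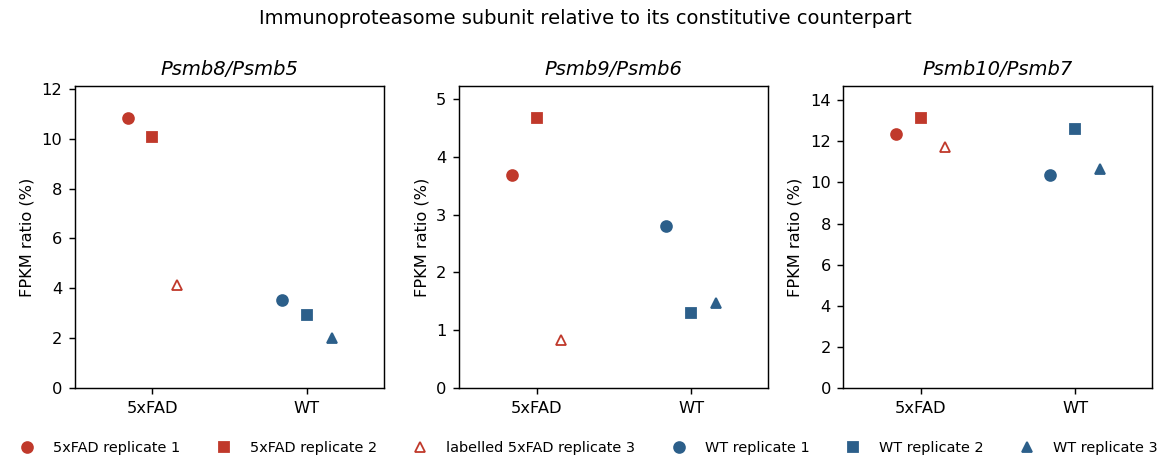
FPKM of each immunoproteasome subunit as a percent of that of the constitutive subunit it replaces, in each CG library, 5xFAD left and WT right, on linear axes from 0. The Psmb8 to Psmb5 ratio separates the groups, with 5xFAD replicates 1 and 2 at 10.8% and 10.08% and WT between 2.02% and 3.52%. The library labelled 5xFAD replicate 3 lies just above WT, at 4.11%. The groups overlap for the other 2 ratios.

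The transporter and loading genes gave smaller differences that did not pass. Tap1 was at 2.33, 2.06 and 0.843 FPKM in the libraries labelled 5xFAD, against 1.16, 0.696 and 1.20 FPKM in WT, a log2 difference of 0.67 in the 5 libraries (SE 0.17, limma adjusted p = 0.232). Tap2, its partner, was at 5.26, 3.94 and 2.88 FPKM in the libraries labelled 5xFAD, against 3.39, 3.08 and 3.06 FPKM in WT, a difference of 0.41 (SE 0.15, limma adjusted p = 0.644). In both, replicates 1 and 2 were above all WT values and the third library was at or below the WT mean. Tapbp was at 14.2, 12.6 and 9.23 FPKM in the libraries labelled 5xFAD, against 9.95, 8.96 and 8.95 FPKM in WT, a difference of 0.48 (SE 0.12, limma adjusted p = 0.207). The ratio of means without the third library was 2.16-fold for Tap1, 1.45-fold for Tap2 and 1.44-fold for Tapbp. Whether these differ from the folds of the heavy chains was not tested.

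Nlrc5 lay below the filter of a mean of 0.5 FPKM and was not tested in the main fits. It was at 1.06, 0.604 and 0.211 FPKM in the libraries labelled 5xFAD, against 0.0956, 0.147 and 0.215 FPKM in WT. The third library was within the WT range and the other 2 were above it. The log2(FPKM + 1) difference was 0.66 in the 5 libraries, which a pseudocount of 0.1 raised to 1.86, and with no filter on low values it did not pass (limma adjusted p = 0.121). The ratio of means was 5.44-fold, with 0.831 ± 0.320 FPKM in 5xFAD replicates 1 and 2 (SD, n = 2) and 0.153 ± 0.0600 in WT (SD, n = 3).

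Counted together, 9 of the 10 genes passed the filter. In 6 libraries limma called 0 of these 9, against 0.0069% of 14500 genes (1 gene). An unadjusted limma p under 0.05 was seen for 2 of the 9 (H2-T23 and Psmb8), against 424 of the 14500 genes. The log2 differences of the 9 genes in 6 libraries ran from 0.24 (Tap2, SE 0.18) to 1.13 (H2-D1, SE 0.53), each with a limma adjusted p of 1.00. In 5 libraries it called 5 of 9 higher, against 1.18% of 14527 genes, and 0 of 9 lower, against 0.0138%. All 9 lay above every WT library in both remaining 5xFAD libraries, against 10.6% of the genes tested. Their median log2 difference was 1.44 in the 5 libraries, where the median over all tested genes was -0.02, and 0.90 in the 6 libraries, where it was -0.01. These 5xFAD values come from 2 libraries, and with the WT libraries shared the 6-library and 5-library fits are not independent.

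The levels had the same leaders in each group. In WT the order ran from B2m (79.8 ± 6.78 FPKM) over H2-D1 to Tapbp and H2-K1, which did not differ beyond their spread, then H2-T23 and Tap2, which did not either, then Psmb8, Psmb9 and Tap1, neighbours whose ranges also overlapped, and last Nlrc5 (0.153 ± 0.0600 FPKM, SD, n = 3 each). In 5xFAD replicates 1 and 2, H2-K1 stood above Tapbp and Psmb8 above Tap2, with no overlap of either pair. Between these 2 libraries, 7 of the 10 genes were higher in replicate 1 and 3 (H2-K1, B2m and Psmb9) in replicate 2. Within replicate 1, B2m, H2-D1, H2-K1 and H2-T23 were 3.08-fold, 3.72-fold, 2.55-fold and 3.32-fold higher in 5xFAD than in WT. In 5xFAD replicate 2 they were 3.42-fold, 3.81-fold, 3.09-fold and 3.42-fold higher than the mean of WT replicates 2 and 3. On the same basis Psmb9 was 1.25-fold higher within replicate 1 and 3.69-fold in 5xFAD replicate 2, and Nlrc5 11.1-fold and 3.34-fold. The Nlrc5 folds rest on WT values near the floor, 0.0956 to 0.215 FPKM. Each fold within replicate 1 sets 1 library against 1. The other 4 genes were higher by 1.42-fold to 3.29-fold within replicate 1 and by 1.29-fold to 3.89-fold in 5xFAD replicate 2.

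The rest of the pathway was read from lists of its other genes. In 6 libraries limma called 0 genes of every such list. An unadjusted limma p under 0.05 was seen for 2 of 16 interferon genes, 3 of 7 class II genes, 1 of 12 promoter factors and 0 in the other lists. Over all 14500 genes tested, 424 had such a p. The calls that follow come from the 5 libraries. Among 22 other class I heavy chain genes, 5 were at 0 in every library and 8 were tested in the 5 libraries, of which 1 was called higher. That gene, H2-Q7, was at 0.981, 1.32 and 0.278 FPKM in the libraries labelled 5xFAD, against 0.16, 0.00438 and 0.0618 FPKM in WT. It passed the filter through its 5xFAD values and in the 5 libraries alone, with a change of 1.00 (SE 0.17, limma adjusted p = 0.0463). Of the 11 alternatives that tested it, 6 ended the call, the omission of any WT library among them (limma adjusted p = 0.0535 to 0.172). With either 5xFAD library left out, H2-Q7 fell below the filter and was not tested. H2-Q7 and H2-Q8 belong to a tandem family of near copies that can share reads. H2-M3, which presents formylated peptides, differed by 1.07 (SE 0.20, limma adjusted p = 0.0643), and H2-Q4 by 0.61 (SE 0.13, limma adjusted p = 0.109). Of 9 class I-like molecules, 3 were tested and 0 called, with log2 differences of 0.24 for the iron regulator Hfe, 0.17 for Mr1, which presents vitamin metabolites, and -0.01 for the neonatal Fc receptor gene Fcgrt.

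Among 13 loading chaperones and trimming peptidases 0 were called, with a median log2 difference of -0.01. The trimming aminopeptidase Erap1 differed by 0.39 (SE 0.13, limma adjusted p = 0.528) and the interferon-linked peptidase Lap3 by 0.41 (SE 0.13, limma adjusted p = 0.391). The general chaperone Hspa5 differed by -0.33 (SE 0.13, limma adjusted p = 0.711). Of the 14 constitutive proteasome core genes, 0 were called and the median was 0.02. Of 6 immunoproteasome partners, 0 were called. Psme2, a subunit of the interferon-induced activator, had the largest difference of these, 0.53 (SE 0.15, limma adjusted p = 0.309).

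Upstream of class I, 3 of 16 tested interferon receptor and signalling genes were called higher in the 5 libraries and 0 lower. Irf8, a myeloid transcription factor, rose by 1.70 (SE 0.17, limma adjusted p = 0.00428), with 7.87, 5.78 and 1.47 FPKM in the libraries labelled 5xFAD, against 1.29, 1.66 and 1.25 FPKM in WT. Its call ended without 5xFAD replicate 1 (limma adjusted p = 0.0675). Irf9, which carries interferon signals to the nucleus, rose by 0.88 (SE 0.14, limma adjusted p = 0.0392), with 6.71, 7.25 and 2.94 FPKM in the libraries labelled 5xFAD, against 3.59, 2.81 and 3.63 FPKM in WT. Its call ended under 5 of 13 alternatives, with a limma adjusted p of up to 0.345. Ifng was at 0 in all libraries but WT replicate 3 (0.0756 FPKM), and Ifnb1 was at 0 in all 6. Of 12 class I promoter factors, 0 were called, with 0.34 for the NF-κB subunit Rela (SE 0.12, limma adjusted p = 0.618).

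**Figure D4:**
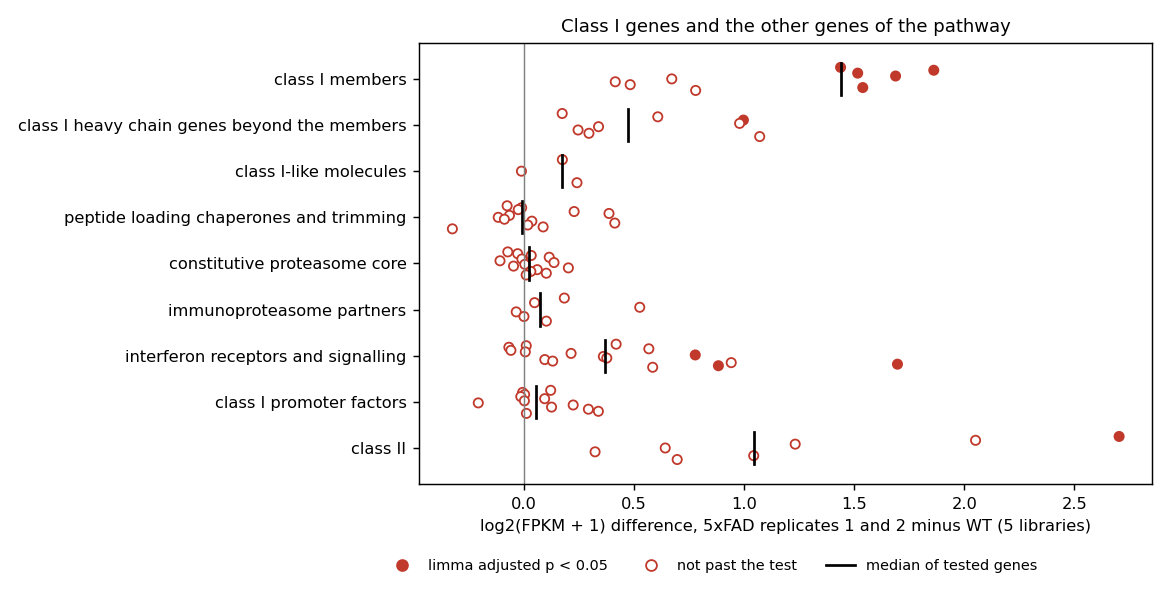
Difference in log2(FPKM + 1), 5xFAD replicates 1 and 2 minus WT, for each tested gene (points) of the class I set and of 8 lists of related genes, with filled points past limma's adjusted p of 0.05 and bars at the list medians. The class I genes called lie between 1.44 and 1.86, while the constitutive proteasome core and the loading chaperones centre near 0.

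Class II genes, which present peptides from outside the cell, had positive differences in all 7 of the genes tested, with a median of 1.04 on the log2 scale. Their summed level was 72.8, 29.4 and 13.2 FPKM in the libraries labelled 5xFAD, against 16.4, 10.6 and 10.7 FPKM in WT. The mean of 5xFAD replicates 1 and 2 was 4.06-fold that of WT, with replicate 1 far above replicate 2. Cd74, the invariant chain, was at 35.5, 13.2 and 3.63 FPKM in the libraries labelled 5xFAD, against 3.98, 1.82 and 2.05 FPKM in WT, and was the 1 called of 7 tested (2.70, SE 0.40, limma adjusted p = 0.0275, and 0.142 without 5xFAD replicate 1).

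Markers of the tissue's cells moved with the class I genes in part. Of 13 microglia markers, 10 were called higher in the 5 libraries and 0 in the 6 libraries. The library left out was already known to have glial genes at WT levels. In the 6 libraries 12 of them had an unadjusted limma p under 0.05, against 424 of the 14500 genes tested. Their summed level was 750, 714 and 218 FPKM in the libraries labelled 5xFAD, against 196, 223 and 219 FPKM in WT, a 3.44-fold ratio without the third library. The summed class I genes were at 367, 386 and 104 FPKM in the libraries labelled 5xFAD, against 126, 112 and 128 FPKM in WT, a 3.09-fold ratio on the same basis. Both sums were high in the same 2 libraries. Of 7 astrocyte markers 1 was called higher in the 5 libraries (Gfap) and 0 in the 6 libraries, where 2 had an unadjusted limma p under 0.05, and the sum was 1409, 1520 and 1090 FPKM in the libraries labelled 5xFAD, against 895, 1170 and 995 FPKM in WT.

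Of 8 endothelial markers, whose cells also carry class I, 0 were called, with sums of 59.1, 45.2 and 39.6 FPKM in the libraries labelled 5xFAD, against 54.1, 45.8 and 45.5 FPKM in WT. The endothelial sums overlapped between the groups. The 5 pericyte, 7 neuron and 5 oligodendrocyte markers had 0 calls each. The oligodendrocyte sum was 1817, 1829 and 1461 FPKM in the libraries labelled 5xFAD, against 1654, 1496 and 1482 FPKM in WT. Replicates 1 and 2 of 5xFAD thus lay above every WT library, a 1.18-fold ratio of means. The neuron sum was 2343, 2339 and 2428 FPKM in the libraries labelled 5xFAD, against 2438, 2384 and 2530 FPKM in WT. T and NK cell markers were near 0, over 9 listed genes of which none passed the filter. Their sum was 0.732, 1.51 and 0.342 FPKM in the libraries labelled 5xFAD, against 0.434, 0.213 and 0.305 FPKM in WT. Replicates 1 and 2 of 5xFAD were above every WT library, a 3.53-fold ratio of means at values near the floor. The T cell genes Cd3e, Cd3d and Cd3g were each at 0 in at least 3 of the 6 libraries. Of 5 meningeal markers 1 (Dcn) was called lower in the 5 libraries and 0 in the 6 libraries, where 0 had an unadjusted limma p under 0.05. The part of any cell type in the class I values was not tested.

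**Figure D5:**
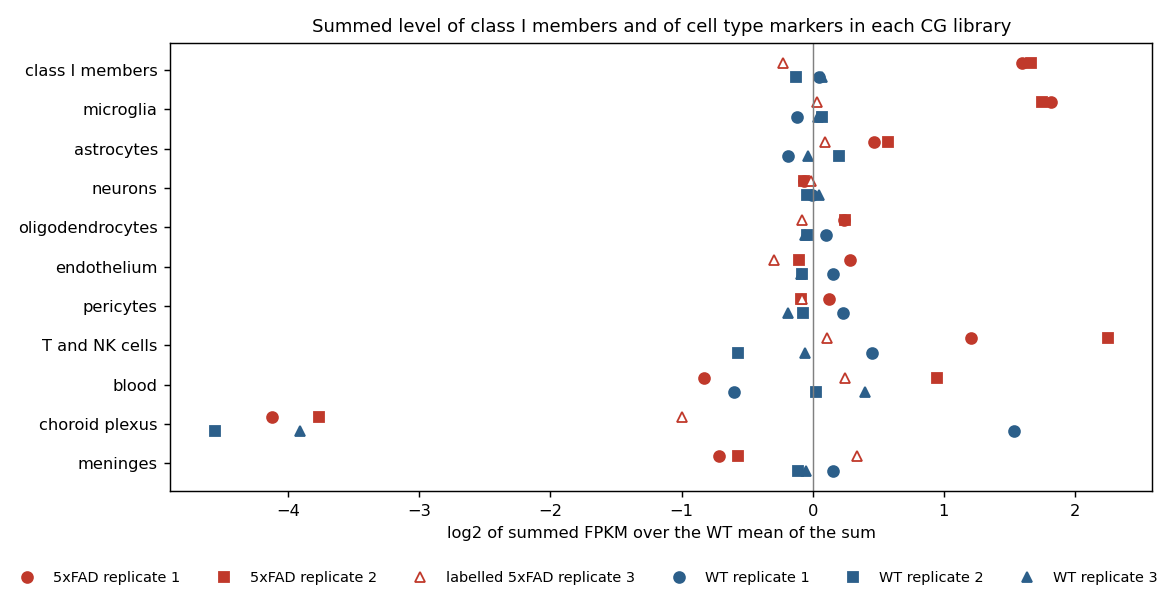
Log2 ratio of summed FPKM to the WT mean of the sum, for the class I genes and 10 lists of cell type markers, with 1 point per CG library and 5xFAD above WT within each row. Class I genes and microglia markers are high in 5xFAD replicates 1 and 2 and near 0 in the other 4 libraries, and choroid plexus markers are high in WT replicate 1. In 5xFAD replicates 1 and 2 the astrocyte, oligodendrocyte and T and NK cell sums also lie above every WT library. The T and NK cell sums rest on FPKM near 0.

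The genes outside the set whose profile lay nearest to its median were ranked by the mean absolute difference over 6 libraries, with log2(FPKM + 1) set against each gene's own WT mean. The 5 nearest were Arpc1b, a subunit of the actin-nucleating Arp2/3 complex (mean difference 0.0409), Ctsh, a lysosomal cathepsin (0.0567), Ncf1, a subunit of the phagocyte NADPH oxidase (0.0619), Lrmp (0.0728) and Parp14, an ADP-ribosyltransferase (0.0762). Arpc1b was at 12.1, 10.4 and 3.97 FPKM in the libraries labelled 5xFAD, against 5.01, 4.19 and 4.22 FPKM in WT. The 9 tested class I genes themselves lay 0.190 (H2-K1) to 0.304 (Psmb9) from the median of all 10. The 5 outside genes were picked as nearest from 13386 genes with a mean of at least 1 FPKM, the class I genes included. Their distances were thus bound to be small and cannot be compared with those of the class I genes. The 6 libraries fall into 2 separate sets in this measure, so it mostly reads which genes were high in 5xFAD replicates 1 and 2 and by how much.

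None of the 10 genes was named in the deposited table of genomic intervals of the AT libraries, a separate set from this circular RNA study, which lists 7025 intervals of 2948 genes. Of the related lists, 4 of 13 loading and trimming genes had 10 intervals and 4 of 14 constitutive proteasome genes had 7.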

How the data were processed

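RNA of hippocampus from 5xFAD and WT mice was measured in 6 CG libraries. Per the labels' protocols, rRNA-depleted libraries were sequenced paired-end. The FPKM per gene was deposited by the authors, and the sources used here do not name the quantifier, its denominator or its strand setting. The build is mm9 per the submitters' processing notes. The deposited table of the AT libraries (signal per interval, with the authors' log2 ratio and p-value) was used only to look up which genes it lists.

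Group and replicate came from the sample titles. The test was limma 3.58.1 (R 4.3.3) with a mean trend on log2(FPKM + 1), which understates changes of low genes, over all genes with a mean of at least 0.5 FPKM, two-sided, calling a gene at a p under 0.05 after Benjamini-Hochberg adjustment over all of them. The same fit was also run on simulated data, with an outcome not reported here. Alternatives were another pseudocount, no filter, 3 other scalings, no trend, array quality weights, a replicate block and each library left out. Among genes above 0, no 2 libraries had equal values for more than 5.51%. The genes and lists were chosen with earlier results of these data known. The naming rule took all 10 genes and, of each list, called genes and up to 4 with the smallest p, and 1 called gene of the interferon list is not reported here. Promoter sequences are RefSeq's, of build GRCm38.p6, and no coordinate was moved between builds.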

Additional observations from a re-analysis of the deposited data

How the results depend on the processing

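With all 6 libraries, 0 class I genes were called under every alternative that kept the library labelled 5xFAD replicate 3, and 5 without it, so the count left out by library ran from 0 to 5. In the 5 libraries the 5 calls became 2 to 6 with 1 more library left out (2 without 5xFAD replicate 1, 3 without 5xFAD replicate 2, 6 without WT replicate 1), where the lone 5xFAD library is assumed to vary like the others, and 4 with no filter on low values. No gene of the set was called lower under any alternative, and no log2 difference of the 9 tested genes changed sign. The Nlrc5 difference in 5 libraries was 0.48 to 0.84 with 1 library left out, and a pseudocount of 0.1 raised it to 1.35 in 6 libraries. The Psmb8/Psmb5 log2 ratio ran from 1.23 to 1.93 with 1 library left out, Psmb10/Psmb7 from 0.10 to 0.24, and Psmb9/Psmb6 from -0.0082 (without 5xFAD replicate 2) to 1.24. The cause of these changes was not tested. The scalings moved the median of all genes to -0.04 at most. With a replicate block the counts stayed at 0 in 6 libraries and 5 in 5 libraries, and the ratio tests gave sign-flip p-values of 0.25 to 0.75 (exact permutation), 0.25 being the smallest possible. Same-numbered libraries correlated in their deviations by 0.42, 0.28 and 0.04 (across genes, which are not independent), and 5xFAD replicate 3 correlated best with WT replicate 2, so the numbers were not taken as pairs. Depth in reads is unknown, and Nlrc5, Psmb9 and Tap1 had the lowest WT levels.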
